A study of Mus musculus with 17 samples.

Results

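The transcripts of 10 growth factor receptor tyrosine kinases were followed in liver and liver tumor RNA from NgBR-deficient mice. The receptors were Egfr, Erbb2, Erbb3, Met, Insr, Igf1r, Fgfr1, Fgfr2, Fgfr3 and Fgfr4. They were chosen by gene symbol, with earlier results of these data known. All 10 were found in both gene-count tables, among 19151 genes of the high-fat diet (HFD) table and 24233 genes of the Western diet (WD) table. All animals were male C57BL6 mice. In N-LKO mice a loxP-flanked Nus1 gene, which encodes NgBR, is removed by Cre recombinase under the albumin promoter, which acts in hepatocytes, so other cells of the liver keep the gene. WT mice served as controls, and whether they carried loxP sites was not given in the sources used here. Mice were kept on chow until 8 weeks of age and then fed for 16 weeks either HFD (WT liver, n = 4; N-LKO liver, n = 4) or WD, which is high in fat and cholesterol (WT liver, n = 3; N-LKO liver, n = 3; N-LKO tumor, n = 3). The samples are labelled as biological replicates. Whether tumors and N-LKO livers came from the same animals was not stated, and p-values measure the spread between these samples.

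Receptor tyrosine kinases are single-pass membrane proteins whose outer part binds a growth factor and whose inner part phosphorylates tyrosines, which starts the MAP kinase and PI3-kinase cascades. Their outer parts carry many N-linked sugars. These are built on dolichol, the lipid made by the enzyme complex of NgBR and Dhdds, and many of these receptors need them to fold and reach the cell surface. In the liver, the EGF receptor and Met (the receptor of hepatocyte growth factor) drive regeneration, the insulin receptor governs glucose and lipid handling, and Fgfr4 with its co-receptor β-Klotho (Klb) lets FGF15/19 restrain bile acid synthesis. RNA-seq reads transcripts only, so glycosylation, surface level and activity of the receptors were not measured.

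Total counts per library were 9096110 to 12215784 under HFD and 15494731 to 20200618 under WD. Values are given as CPM, that is, counts scaled by library size and TMM factor within a table, and the tables are not compared with each other. Under HFD the targeted gene Nus1 ran from 82.5 to 96.2 CPM in WT and from 29.4 to 38.0 CPM in N-LKO, and it ran over 88.2 to 98.9 CPM in WT livers, 41.7 to 51.1 CPM in N-LKO livers and 29 to 44 CPM in tumors under WD, so no knockout library overlapped the WT libraries of its diet. Hepatocyte markers (10 genes) summed to between 32800 and 75200 CPM in all 17 libraries, which fits the labelled tissue. WT liver replicate 2 under WD stood apart: it had the lowest TMM factor of its table (0.806), the highest value of the 3 WT livers for 8 of the 10 receptors, and the lowest summed level of the 3 for cholangiocyte markers (20.4 CPM against 71.0 and 73.0), stellate cell markers (474 CPM against 786 and 911) and macrophage markers (538 CPM against 828 and 876). The main receptor differences under WD are therefore given with and without it. The part of these differences in the receptor values was not tested, and in whole tissue fewer cells of a type and less RNA per cell cannot be told apart.

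Compared per length (CPM divided by the length in kb of the longest annotated transcript), the receptors of WT liver fell into a high, a middle and a low tier. Under HFD the high tier held Egfr at 25.1 ± 7.96 (SD, n = 4), Insr at 17.8 ± 0.349, Met at 15.3 ± 1.28 and Erbb3 at 15.1 ± 1.01 CPM per kb. In this tier the ranges of Egfr and Insr overlapped, as did those of Met and Erbb3, whereas every Insr value lay above every Met value. The middle tier held Fgfr4 at 6.24 ± 0.836, Fgfr2 at 4.93 ± 0.648 and Fgfr3 at 3.70 ± 0.564 CPM per kb, with overlapping neighbours. Fgfr1 (0.909 ± 0.371), Igf1r (0.239 ± 0.0154) and Erbb2 (0.0602 ± 0.0299 CPM per kb) formed the low tier and did not overlap each other. Under WD the receptors of WT liver are listed in the same tiers. The high one held Egfr at 67.1 ± 45.3 (n = 3), Insr at 34.2 ± 6.15, Met at 28.2 ± 8.08 and Erbb3 at 27.5 ± 7.49 CPM per kb. The middle one held Fgfr2 at 10.4 ± 1.54, Fgfr4 at 7.5 ± 1.7 and Fgfr3 at 3.68 ± 0.801, but here every Fgfr4 value lay above every Fgfr3 value. The low one held Fgfr1 at 1.81 ± 0.258, Igf1r at 1.02 ± 0.221 and Erbb2 at 0.375 ± 0.103. The order within the high tier differed between groups. Egfr, in first place in WT liver on either diet, ranked 4 of 10 in N-LKO liver under HFD (13.7 ± 5.04 CPM per kb, n = 4) and 3 of 10 in tumors (24.3 ± 7.84, n = 3), where Insr led at 27.4 ± 4.17. This shift depends on the length used: divided by the mean transcript length, Egfr ranked 1 in all 5 groups. The gap between the high and middle tiers depends on it too. Divided that way, Erbb3 (13.6 to 16.0 CPM per kb) overlapped Fgfr4 (12.4 to 16.9) in WT liver under HFD. In WT liver under WD Erbb3 (20.6 to 35.5) overlapped Fgfr2 (18.3 to 24.7), and in tumors it ranked 5 of 10.

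**Figure D1:**
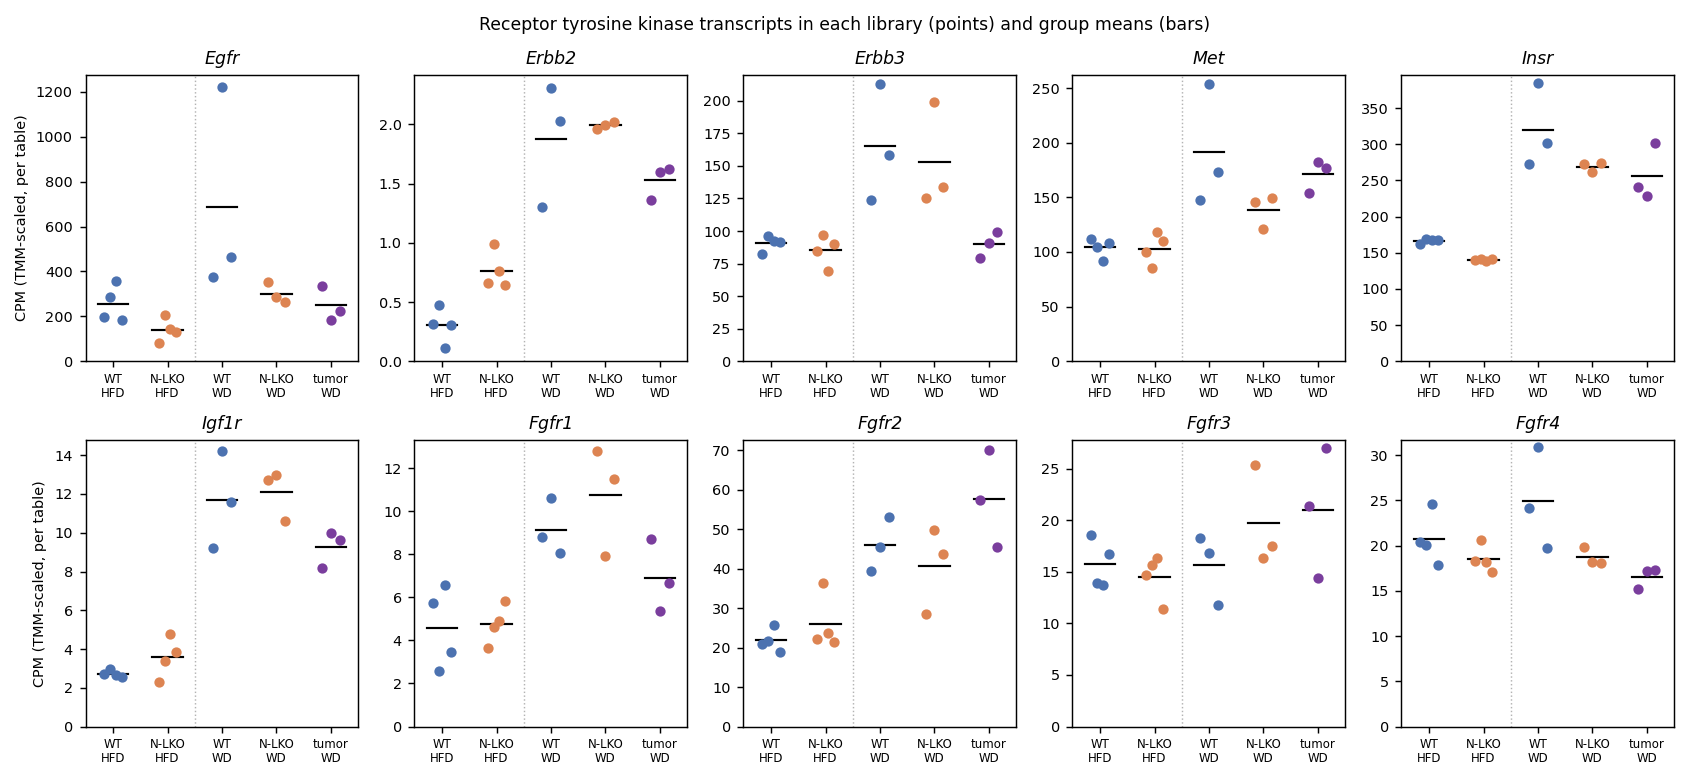
CPM (y axis, from 0, scaled separately for each gene) of the 10 receptors in each of the 17 libraries (points) with group means (bars), for WT liver and N-LKO liver under HFD and WT liver, N-LKO liver and N-LKO tumor under WD (x axis). Insr separates the genotypes under HFD (all N-LKO libraries below all WT libraries), and a WT liver under WD stands at 1220 CPM for Egfr.

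Of the receptors tested, Egfr had the largest difference in N-LKO against WT liver on either diet and in tumor against WT liver, each time toward lower values, and only the last passed the threshold. Under HFD, 9 receptors passed the filter on low counts and 0 were called by edgeR at an adjusted p under 0.05, beside 4.84% of all genes tested. At an unadjusted p under 0.05 there were 2 of the 9 (Egfr and Insr, both lower in N-LKO), beside 22.7% of genes, and DESeq2 called 1 (Insr), beside 7.43%. The groups did not overlap for 1 of the 9 (Insr), beside 14.8% of genes. Under WD, 0 of 10 receptors were called between N-LKO and WT liver, where edgeR called 0 genes in all (0%). Unadjusted there were 3 (Egfr, Met and Fgfr4, all lower in N-LKO), beside 12.4% of genes, and DESeq2 called 0 receptors, beside 0.561% of genes. The groups did not overlap for 1 receptor (Egfr), beside 27.9% of genes. Without WT liver replicate 2, 0 receptors stood at an unadjusted p under 0.05, beside 1015 of 18518 genes tested. The median log2 fold change of the 10 receptors was then 0.002, against −0.148 with that library.

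Summed levels of some cell type markers differed between genotypes, though few single markers were called. Under WD hepatocyte markers summed to 32800 to 42100 CPM in N-LKO livers and 44700 to 55200 CPM in WT livers, with no overlap. Of the 10 markers 9 had a negative fold change (median −0.554, beside 0.013 over all genes). At an unadjusted p under 0.05 there were 4, all lower, beside 12.4% of genes, and 0 were called by edgeR (0% of genes) or DESeq2 (0.561%). Cholangiocyte markers summed to 119 to 154 CPM in N-LKO and 20.4 to 73.0 CPM in WT livers on this diet. Of the 7 tested 2 stood at an unadjusted p under 0.05, both higher, beside 12.4% of genes, and 0 were called by edgeR or DESeq2. Under HFD cholangiocyte markers summed to 63.7 to 105 CPM in N-LKO and 21.8 to 40.5 CPM in WT livers, again without overlap. Of the 3 tested 1 (Spp1) was called higher, beside 4.84% of genes, and in all 8 fits with a library left out. Macrophage markers under HFD summed to a mean of 106 CPM in N-LKO and 157 CPM in WT livers, and the groups overlapped. Of these 2 of 7 (Clec4f and Vsig4) were called lower, beside the same 4.84%, with a median of −0.673, and 1 of the 7 was positive. Clec4f held its call in 2 of 8 fits with a library left out and Vsig4 in 1 of 8. With a length offset in the fit 0 of the 7 were called, beside 1.99% of genes. Of 7 endothelial markers 1 (Stab2) was called lower under HFD, beside 4.84% of genes, and 5 of the 7 were negative. The Stab2 call held in 2 of 8 fits with a library left out (edgeR adjusted p up to 0.104). With the length offset Stab2 was not called (adjusted p 0.109) and Clec4g was (−0.57, adjusted p 0.046). Hepatocyte markers did not go down under HFD as they did under WD: 7 of 10 had a positive fold change (median 0.173, beside −0.006 over all genes). At an unadjusted p under 0.05 stood 4 higher and 1 lower, beside 22.7% of genes. EdgeR called 0 of these 10, and DESeq2 called 1, higher. The part of these markers in the values of the receptors and of the pathway genes was not tested.

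Between tumor and N-LKO liver edgeR called 0 of 10 receptors, beside 0.499% of genes. Here 3 stood at an unadjusted p under 0.05 (Erbb3 and Fgfr1 lower, Fgfr2 higher in tumors), beside 18.3% of genes, and DESeq2 called 1 (Erbb3), beside 5.73%. The groups did not overlap for 5 receptors, Met higher and Erbb2, Erbb3, Igf1r and Fgfr4 lower in tumors, beside 23.1% of genes. Between tumor and WT liver 3 of 10 receptors were called, Egfr, Erbb3 and Fgfr4, all lower in tumors, beside 14.9% of genes called in either direction and 6.8% called lower. Both DESeq2 (20.4% of genes) and the unadjusted p (32.5% of genes) gave 3 receptors there as well, and the groups did not overlap for these 3, beside 34.1% of genes. The median log2 fold change of the 10 receptors in this comparison was −0.325, beside 0.041 over all genes tested. These 3 calls were not firm: with each of the 9 WD libraries left out in turn the number called ran from 0 to 2. It was 0 without WT liver replicate 2, where 569 of 18518 genes were called in all and the median of the 10 receptors was −0.168. Hepatocyte markers moved in the same comparison: 4 of 10 were called lower in tumors (Asgr1, Hnf4a, Pck1 and Ttr) and 0 higher, although their summed level ran over 44700 to 55200 CPM in WT livers and 36000 to 62200 CPM in tumors, and 0 were called without WT liver replicate 2. Their part in the receptor values was not tested. The comparisons of tumors and of N-LKO livers with WT liver share the WT libraries. For the difference of the genotype effect between diets 0 of 10 receptors were called by edgeR, beside 1.62% of genes, with 1 (Erbb2) at an unadjusted p under 0.05, beside 20% of genes, and 0 by DESeq2, beside 6.19%.

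**Figure D2:**
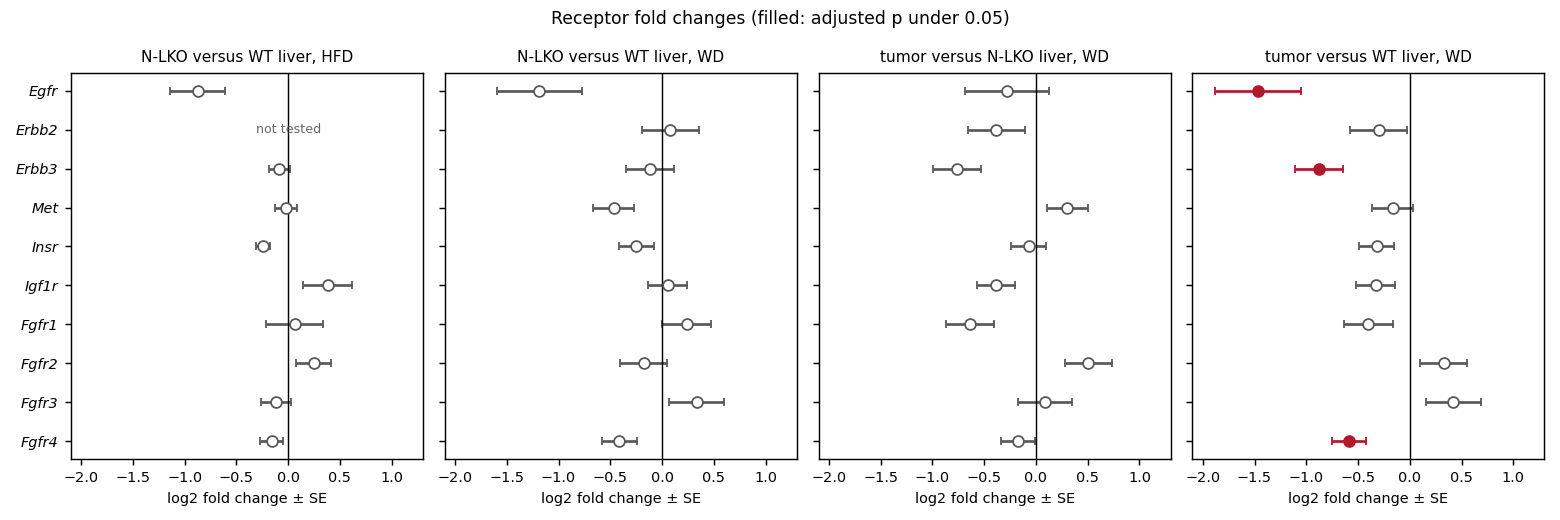
Log2 fold change (x axis) with its SE (bars) of the 10 receptors (rows) in 4 comparisons (panels), with receptors past an adjusted p of 0.05 filled. The filled points are Egfr (−1.46), Erbb3 (−0.88) and Fgfr4 (−0.59) in tumors against WT liver, and Erbb2 was not tested under HFD.

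The ErbB family binds EGF-like ligands and neuregulins. Egfr, the EGF receptor, (ENSMUSG00000020122.16) spans bases 16752203 to 16918158 of chromosome 11 (GRCm38, plus strand), with 28 exons and 10208 bases in its longest transcript. Under HFD it stood at 198, 284, 358 and 183 CPM in WT livers and at 80.1, 205, 143 and 129 CPM in N-LKO livers. The N-LKO libraries were the lower ones on average, but replicate 2 (205 CPM) lay above 2 of the WT libraries, so the groups overlapped. The log2 fold change was −0.88 (SE 0.27, edgeR adjusted p 0.0797), and without N-LKO replicate 2 it was −1.12 and passed the threshold (adjusted p 0.0361). On WD the values were 374, 1220 and 464 CPM in WT livers, 353, 287 and 262 CPM in N-LKO livers and 337, 182 and 226 CPM in tumors. Every N-LKO liver and every tumor lay below every WT liver, although WT replicate 1 and N-LKO replicate 1 were close, and livers and tumors of N-LKO mice overlapped. The log2 fold change was −1.19 (SE 0.41, adjusted p 0.359) for N-LKO against WT liver and −1.46 (SE 0.41, adjusted p 0.0408) for tumor against WT liver. Without WT replicate 2 these values were −0.48 and −0.76 (adjusted p 0.119 for tumors), so this library carried much of the size of the difference and the call. The tumor call was also lost without tumor replicate 2 or 3 or without any of the 3 N-LKO livers. The latter are in neither group compared, and enter through the shared spread, the low-count filter, the TMM factors and the adjustment. Between tumor and N-LKO liver the difference was −0.28 (SE 0.40, adjusted p 0.762).

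The promoter stretches of Egfr and Fgfr4 are shown because both receptors were called lower in tumors, as RefSeq sequence of GRCm38.p6 that ends before the annotated gene start. Capitals mark GGGCGG or its reverse complement CCGCCC, the GC box bound by Sp1-type factors, and the search also covered TATAAA on both strands. Of the 10 receptors 7 had an entry, and Erbb3, the other receptor called, had none.
Egfr, chr11:16752083-16752202, plus strand: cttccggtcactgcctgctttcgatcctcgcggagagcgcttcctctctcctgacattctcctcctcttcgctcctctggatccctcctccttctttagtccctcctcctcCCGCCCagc
Fgfr4, chr13:55152568-55152639, plus strand: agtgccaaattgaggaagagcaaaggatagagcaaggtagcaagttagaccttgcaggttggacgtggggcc
In the 250 bases before the RefSeq start, Egfr had 1 GC box and Fgfr4 had 2, the latter downstream of the stretch printed. Of all 32851 promoter windows of 250 bases, 32.7% held a GC box and 12.4% held TATAAA, which was in neither of these windows. The windows of Egfr and Fgfr4 were 60.8% and 64.0% G or C, beside a median of 52.4%.

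Erbb2 (ENSMUSG00000062312.5), an ErbB receptor that binds no ligand itself and pairs with the others, lies on chromosome 11 from 98412470 to 98437716 on the plus strand. It was barely detected. Under HFD its counts were 3, 5, 1 and 3 in WT livers and 8, 12, 7 and 8 in N-LKO livers, which do not overlap. It did not pass the filter on low counts. With no filter its log2 fold change was 1.30 (SE 0.50, adjusted p 0.175). Under WD its levels were 1.30, 2.31 and 2.03 CPM in WT livers, 1.96, 1.99 and 2.02 CPM in N-LKO livers and 1.36, 1.60 and 1.62 CPM in tumors. All 3 tumors lay below all 3 N-LKO livers, with a log2 fold change of −0.38 (SE 0.27, adjusted p 0.488). The genotype effect under WD minus that under HFD was −1.19 (SE 0.50, adjusted p 0.202).

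Erbb3 (ENSMUSG00000018166.8), the neuregulin receptor whose own kinase is weak, lies on chromosome 10 from 128567523 to 128589652 on the minus strand, with 28 exons in its only annotated transcript. Under HFD it stood at 82.1, 96.5, 92.2 and 91.6 CPM in WT livers and at 84.5, 97.1, 69.5 and 90.2 CPM in N-LKO livers, with a log2 fold change of −0.09 (SE 0.10, adjusted p 0.671). The groups overlapped almost fully. Under WD it stood at 124, 213 and 158 CPM in WT livers, 125, 199 and 134 CPM in N-LKO livers and 79.5, 90.6 and 99.3 CPM in tumors. Every tumor lay below all 6 livers. The log2 fold change of tumor against WT liver was −0.88 (SE 0.23, adjusted p 0.0334), and that against N-LKO liver was −0.76 (SE 0.23, adjusted p 0.134, or 0.0419 in DESeq2). N-LKO and WT liver did not differ by more than their spread (−0.12, SE 0.23, adjusted p 0.843). With a library left out, the fold change of tumor against WT liver ran from −1.06 to −0.66 and its call held in 3 of 9 fits. It was lost without WT replicate 2 (adjusted p 0.119) or 3, without N-LKO replicate 3, or without any tumor.

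Met (ENSMUSG00000009376.15), the receptor of hepatocyte growth factor, lies on chromosome 6 from 17463800 to 17573980 on the plus strand. Under HFD it stood at 112, 105, 91.7 and 108 CPM in WT livers and at 99.7, 85.0, 118 and 110 CPM in N-LKO livers, a log2 fold change of −0.02 (SE 0.11, adjusted p 0.943). The 2 genotypes overlapped under HFD. WD samples had 148.4, 253.7 and 173.3 CPM in WT livers, 146.1, 121.1 and 149.2 CPM in N-LKO livers and 153.9, 182.5 and 176.9 CPM in tumors. Each tumor lay above each N-LKO liver, while tumors overlapped WT livers, a pattern unlike that of Egfr. None of these differences passed: the log2 fold change was −0.47 (SE 0.20, adjusted p 0.389) for N-LKO against WT liver, 0.30 (SE 0.20, adjusted p 0.45) for tumor against N-LKO liver and −0.16 (SE 0.20, adjusted p 0.598) for tumor against WT liver. Without WT replicate 2 the first of these was −0.22 and the last became 0.09.

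Insr (ENSMUSG00000005534.10), the insulin receptor, lies on chromosome 8 from 3122061 to 3279617 on the minus strand, with 21 exons and 9355 bases in its longest transcript. It gave the tightest separation of genotypes: under HFD it stood at 161.6, 169.3, 166.7 and 167.1 CPM in WT livers and at 139.6, 141.9, 138.3 and 141.1 CPM in N-LKO livers. Every N-LKO liver lay below every WT liver. The log2 fold change was −0.24 (SE 0.07), with an adjusted p of 0.0589 in edgeR and 0.0118 in DESeq2, and it ran from −0.26 to −0.23 with a library left out. The WD values were 273, 384 and 302 CPM in WT livers, 272, 261 and 274 CPM in N-LKO livers and 241, 228 and 301 CPM in tumors, and the groups overlapped. The difference of N-LKO from WT liver under WD was −0.25 (SE 0.17, adjusted p 0.536), and that of tumor from WT liver was −0.32 (SE 0.17, adjusted p 0.220). With WT replicate 2 left out they were −0.10 and −0.17.

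Igf1r (ENSMUSG00000005533.10), the receptor of insulin-like growth factors, lies on chromosome 7 from 67952827 to 68233668 on the plus strand. Hepatocytes are known to carry little of it, and its level was low in all groups. Under HFD it stood at 2.71, 2.96, 2.67 and 2.55 CPM in WT livers and at 2.32, 3.38, 4.79 and 3.84 CPM in N-LKO livers, a log2 fold change of 0.38 (SE 0.24, adjusted p 0.366). The groups overlapped through N-LKO replicate 1. In the WD table it had 9.20, 14.2 and 11.6 CPM in WT livers, 12.7, 13 and 10.6 CPM in N-LKO livers and 8.19, 10 and 9.65 CPM in tumors. All tumors lay below all N-LKO livers, with a log2 fold change of −0.38 (SE 0.18, adjusted p 0.306). Per length, WT livers held 69.7 to 80.1 times as much Insr as Igf1r under HFD and N-LKO livers 35.2 to 73.4 times. By mean transcript length these were 59.0 to 67.8 and 29.8 to 62.1 times, and Igf1r had 24 to 48 counts per HFD library. Under WD the ratio by longest transcript was 31.8 to 36.3 in WT livers, 24.5 to 31.4 in N-LKO livers and 27.7 to 38.0 in tumors.

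Of the FGF receptors, Fgfr4 is the hepatocyte's own and the others are shared with many tissues. Fgfr4 (ENSMUSG00000005320.9) lies on chromosome 13 from 55152640 to 55168759 on the plus strand. Under HFD it stood at 20.4, 20.1, 24.6 and 17.9 CPM in WT livers and at 18.3, 20.6, 18.2 and 17.1 CPM in N-LKO livers (log2 fold change −0.16, SE 0.11, adjusted p 0.426). The levels under WD were 24.2, 30.9 and 19.7 CPM in WT livers, 19.8, 18.2 and 18.1 CPM in N-LKO livers and 15.2, 17.2 and 17.3 CPM in tumors. The tumors were the lowest of the 3 groups and overlapped neither liver group. The log2 fold change was −0.59 (SE 0.17, adjusted p 0.0424) for tumor against WT liver, −0.41 (SE 0.17, adjusted p 0.384) for N-LKO against WT liver and −0.18 (SE 0.17, adjusted p 0.618) for tumor against N-LKO liver. Its call was the weakest of the 3 in tumors: it held in 1 of the 9 fits with a library left out, the fit without WT replicate 3, and without WT replicate 2 the log2 fold change was −0.41 (adjusted p 0.141). That of N-LKO against WT liver was then −0.23.

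Fgfr2 (ENSMUSG00000030849.18), the FGF receptor of many epithelia, lies on chromosome 7 of GRCm38, where its annotated span from 130162451 to 133123350 on the minus strand is stretched by a long transcript across other genes. Under HFD it stood at 21.0, 21.6, 25.8 and 18.9 CPM in WT livers and at 22.2, 36.4, 23.7 and 21.3 CPM in N-LKO livers (log2 fold change 0.25, SE 0.17, adjusted p 0.411). N-LKO replicate 2 stood above the others. Under WD it stood at 39.4, 45.5 and 53.0 CPM in WT livers, 28.4, 49.9 and 43.7 CPM in N-LKO livers and 57.4, 70.1 and 45.4 CPM in tumors. Tumors 1 and 2 lay above all 6 livers and tumor 3 did not. The log2 fold change was 0.50 (SE 0.23, adjusted p 0.273) for tumor against N-LKO liver and 0.33 (SE 0.23, adjusted p 0.345) for tumor against WT liver.

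Fgfr3 (ENSMUSG00000054252.18), on chromosome 5 from 33721674 to 33737068 on the plus strand, ranged from 11.4 to 18.6 CPM in HFD livers and from 11.8 to 27.0 CPM in WD libraries, and its groups overlapped in all 4 comparisons. Its largest log2 fold change was 0.42 (SE 0.26, adjusted p 0.293), in tumors against WT liver. Fgfr1 (ENSMUSG00000031565.18), on chromosome 8 from 25513654 to 25575718 on the plus strand and known mainly from mesenchymal cells, ranged from 2.58 to 6.56 CPM in HFD livers. Under WD it stood at 8.79, 10.6 and 8.05 CPM in WT livers, 12.8, 7.93 and 11.5 CPM in N-LKO livers and 8.70, 5.38 and 6.67 CPM in tumors. The difference of tumor from N-LKO liver was −0.64 (SE 0.24, adjusted p 0.197), with overlapping groups. Summed stellate cell markers, whose cells belong to the mesenchyme, ran over 838 to 984 CPM in N-LKO livers and 569 to 1010 CPM in tumors, and their part in the Fgfr1 values was not tested.

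The make-up of the FGF receptors was taken as shares of their summed CPM per kb. Under HFD Fgfr4 had 39.5 ± 2.22% (SD, n = 4) and Fgfr2 31.2 ± 2.11% in WT liver, and in N-LKO liver they were close, at 35.6 ± 2.29% and 36.6 ± 4.44%. Under WD Fgfr2 had the largest mean share in all 3 groups: 44.6 ± 7.91% in WT livers (n = 3), 42.3 ± 10.4% in N-LKO livers and 53.3 ± 8.95% in tumors, beside 31.9 ± 4.92%, 26.1 ± 2.11% and 20.6 ± 1.84% for Fgfr4. Per library the ratio of Fgfr2 to Fgfr4 per kb was 0.773, 0.808, 0.788 and 0.793 in WT and 0.910, 1.33, 0.980 and 0.933 in N-LKO livers under HFD. All 4 N-LKO livers lay above all 4 WT livers. Under WD it was 1.22, 1.10 and 2.02 in WT livers, 1.07, 2.05 and 1.81 in N-LKO livers and 2.83, 3.06 and 1.97 in tumors, and there the third tumor overlapped the livers. The ratios were chosen after the values had been seen and carry no test. In N-LKO liver under HFD only replicate 2 had more Fgfr2 than Fgfr4 per kb. The length used was that of the longest transcript, which for Fgfr2 is annotated as nonsense mediated decay. Divided by the mean transcript length, Fgfr4 had more than Fgfr2 in N-LKO liver under HFD (12.8 against 12.1 CPM per kb).

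**Figure D3:**
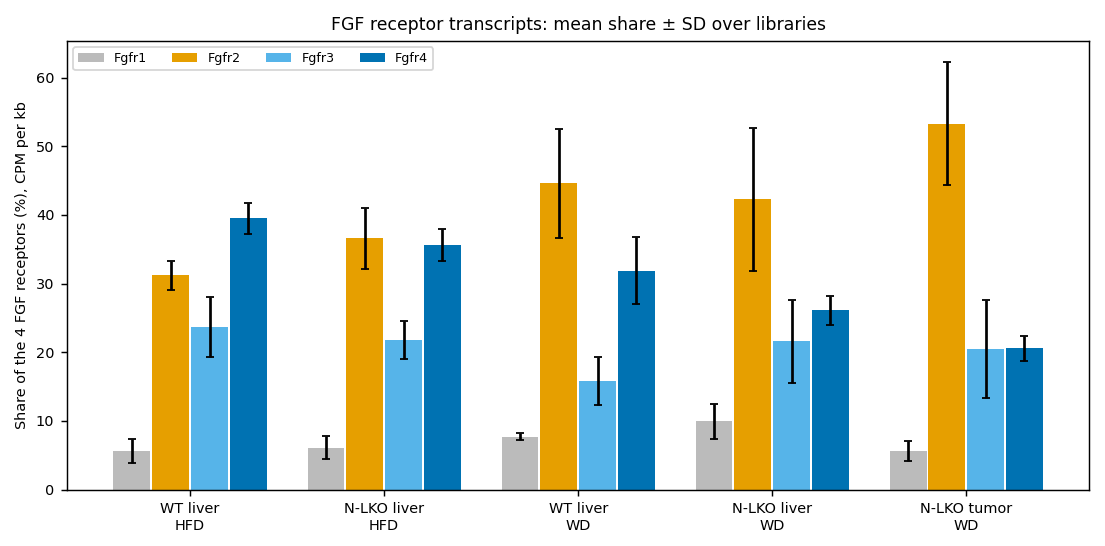
Mean share (y axis, %) of Fgfr1, Fgfr2, Fgfr3 and Fgfr4 in their summed CPM per kb, with SD over libraries (error bars), in the 5 groups (x axis; n = 4 under HFD and n = 3 under WD). Fgfr2 has the largest mean share in 4 of the 5 groups, and Fgfr4 has it in WT liver under HFD (39.5%). In N-LKO liver under HFD the margin is narrow (36.6% against 35.6% for Fgfr4), and only replicate 2 holds more Fgfr2 than Fgfr4.

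Because the receptors have long transcripts, each was set beside genes of like length. Under HFD the fold change between N-LKO and WT liver followed transcript length over all genes tested: the median was 0.206 in the shortest of 10 equal bins (66 to 955 bases) and −0.184 in the longest (6571 bases and more), which held Egfr, Insr, Met and Igf1r. Against this bin Insr was ordinary, at −0.061 from the bin's median with 38.3% of its 1321 genes lower, and with a length offset in the fit the log2 fold change of Insr was −0.06 (adjusted p 0.704). Egfr was not: it lay −0.692 from the median of its bin with 1.3% of the genes lower, and kept −0.68 with the length offset (adjusted p 0.199). Igf1r lay 0.565 above its bin, with 95.8% of genes lower. Erbb3 and Met, just under 0 in the unadjusted scale, were at 0.04 and 0.13 with the length offset. With that offset 4 of the 9 receptors tested had a negative fold change under HFD in place of 6.

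Under WD the trend between N-LKO and WT liver ran the other way and was smaller, from −0.096 in the shortest bin to 0.077 in the longest. There Egfr lay −1.264 from its bin's median with 0.5% of genes lower, and Met −0.543 with 2.9% lower. With WT replicate 2 left out these distances were −0.545 and −0.279, with 2.6% and 9.5% of genes lower. In tumors against WT liver the bins of shortest and longest transcripts stood at −0.033 and 0.077. Egfr lay −1.542 from its bin, Erbb3 −0.921 and Fgfr4 −0.624, with 1.3%, 4.6% and 11.5% of the genes of their bins lower, and all 3 stayed called with the length offset (adjusted p 0.0336, 0.0279 and 0.0406). Without WT replicate 2 the distances from the bin were −0.835, −0.71 and −0.46, with 4.4%, 7.5% and 16.8% of genes lower. With an offset for length and GC content Fgfr4, at 58.78% G or C in its longest transcript, was no longer called (−0.48, adjusted p 0.0592). These shares are descriptions of the bins and not tests.

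**Figure D4:**
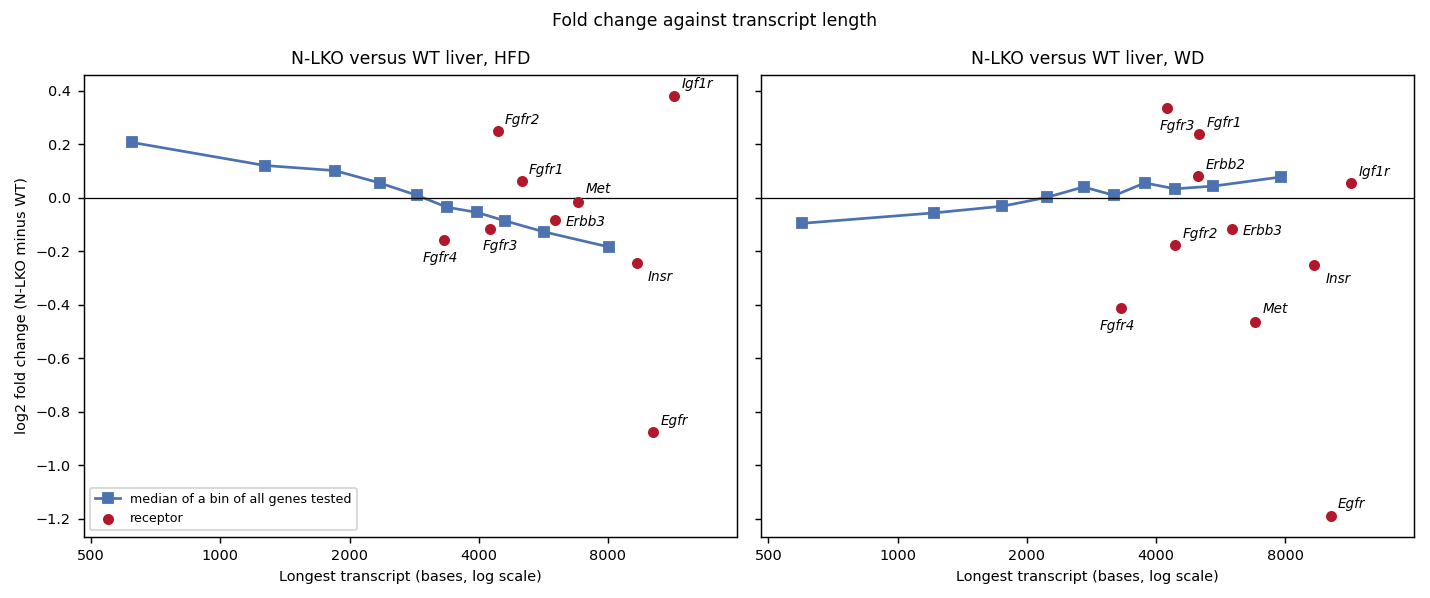
Log2 fold change, N-LKO minus WT liver (y axis), against the length of the longest transcript (x axis, bases, log scale) under HFD (left) and WD (right). Squares are medians of 10 equal bins of all genes tested, and circles are the receptors. The HFD medians run from 0.206 to −0.184 and pass close to Insr, and Egfr lies below the medians on both diets, under WD at −1.264 from its bin with all libraries and at −0.545 without WT replicate 2.

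The ligands of these receptors gave calls in tumors. Of 23 ligand genes 14 were tested under WD, and 3 were called higher and 2 lower in tumors against WT liver (median log2 fold change 0.566, beside 0.041 for all genes). These 5 of 14 stand beside 14.9% of all genes called, the background for each list in this comparison, and a share near it is no result about a list. DESeq2 called 4 of the 14, beside 20.4% of genes. Btc (betacellulin, an EGF-family ligand) stood at 6.80, 3.46 and 4.06 CPM in WT livers and at 12, 22.4 and 13.3 CPM in tumors, and rose by 1.74 on the log2 scale (SE 0.32, adjusted p 0.0121). Hbegf (heparin-binding EGF-like growth factor) stood at 1.85, 0.814 and 1.91 CPM against 3.07, 4.98 and 5.42 CPM in tumors, a rise of 1.55 (SE 0.38, adjusted p 0.0267). So 2 ligands of the EGF receptor were higher where its transcript was lower. Igf1, the main hormone output of the growth hormone axis in liver, stood at 664, 902 and 672 CPM against 418, 246 and 172 CPM in tumors (−1.42, SE 0.29, adjusted p 0.0155), and Fgf1 at 106, 158 and 119 CPM against 75.3, 35.4 and 50.5 CPM (−1.25, SE 0.27, adjusted p 0.0180). The 2 groups did not overlap for any of these 4 genes. Igf2, the fetal growth factor, had 7.20 (SE 2.13, adjusted p 0.0479), but this was tumor replicate 2 alone: it stood at 334 CPM there, at 1.81 and 0.261 CPM in the other tumors and at 0.480, 0.610 and 1.13 CPM in WT livers, and without that tumor the value was 0.43 (adjusted p 0.753). Without WT replicate 2, 1 ligand of 15 was called (Nrg2, higher) and neither Btc, Hbegf, Igf1 nor Fgf1 passed. That fit called 569 of 18518 genes in all, the background for each list in it. Between N-LKO and WT liver 0 of 14 ligands were called under WD, beside 0% of genes. There 4 stood at an unadjusted p under 0.05 (3 higher, 1 lower), beside 12.4% of genes, and DESeq2 called 0, beside 0.561%. Under HFD 0 of 8 were called, beside 4.84% of genes. Unadjusted there were 2 at a p under 0.05, both lower, beside 22.7%, and DESeq2 called 1 (Fgf1), beside 7.43%. Fgf1 stood at 115 ± 2.50 (n = 4) against 148 ± 22.7 CPM in WT, with −0.36 (SE 0.10, adjusted p 0.0660), and Igf1 at 443 against 534 CPM (−0.27, SE 0.13, adjusted p 0.243).

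Co-receptors and adaptors carry the signal inward. Under HFD edgeR called 1 of 17, beside 4.84% of genes, and DESeq2 2 of 17 (Klb and Crk), beside 7.43%. The call of both was Klb, the co-receptor of Fgfr4, which stood at 23.2, 31.1, 28 and 29.9 CPM in WT livers and at 18.9, 21.0, 19.3 and 16.9 CPM in N-LKO livers and fell by 0.56 on the log2 scale (SE 0.11, adjusted p 0.0196). All N-LKO livers were below all WT livers. Of the 17 genes 15 were negative (median −0.263, beside −0.006 for all genes), and Klb was called in 3 of 8 fits with a library left out. Fold changes followed transcript length here, as given above: of the genes in the 3 bins of longest transcripts 65.9%, 69.6% and 76.6% were negative, beside 24.8% in the shortest. With the length offset 14 of the 17 were negative, but the median was −0.117, and Klb was still called (−0.53, adjusted p 0.0382). Under WD 0 of 17 were called between N-LKO and WT liver, and in tumors 2 of 17 were called lower against WT liver, beside 6.8% of genes called lower: Pik3r1, the regulatory subunit of PI3-kinase (93.4 against 172 CPM, −0.88, SE 0.25, adjusted p 0.0441), and Plcg1, phospholipase C gamma (37.1 against 52.8 CPM, −0.51, SE 0.12, adjusted p 0.0218). Neither was called without WT replicate 2. Crk, an adaptor of many receptors, had 63.1 ± 4.55 CPM in N-LKO and 77.4 ± 3.85 CPM in WT livers under HFD (n = 4 each, −0.30, adjusted p 0.0563 in edgeR and 0.0357 in DESeq2), without overlap, and it had −0.22, not called, with the length offset.

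Inhibitors and phosphatases that turn the receptors off were measured next. Under HFD edgeR called 2 of 19, beside 4.84% of genes, both lower in N-LKO: Cblb, a ubiquitin ligase of activated receptors (9.67 against 13.8 CPM, −0.51, SE 0.12, adjusted p 0.0356), and Ptprf, a receptor phosphatase that acts on the insulin receptor (91.4 against 115 CPM, −0.34, SE 0.07, adjusted p 0.0237). Each held its call in 3 of 8 fits with a library left out (adjusted p up to 0.103 and 0.0758), and neither was called with the length offset (−0.36, adjusted p 0.128, and −0.18, adjusted p 0.200). In tumors against WT liver 4 of 20 were called by edgeR, beside 14.9% of genes, and 7 by DESeq2, beside 20.4%. Grb10, an adaptor that inhibits the insulin and IGF receptors, rose by 1.11 (SE 0.17, adjusted p 0.00782), from 7.83, 6.31 and 8.11 CPM in WT livers to 15.0, 18.6 and 14.4 CPM in tumors, with N-LKO livers between at 11, 9.4 and 10.4 CPM. The 3 groups did not overlap, and the tumor call held in all 9 fits with a library left out. Lrig2 was also higher (0.51, SE 0.13, adjusted p 0.0287), and Ptprj (−0.62, SE 0.14, adjusted p 0.0224) and Ptprf (−0.59, SE 0.16, adjusted p 0.0354), both receptor phosphatases, were lower. Without WT replicate 2, Grb10 was the only member of the list called, beside 569 of 18518 genes. Errfi1, a feedback inhibitor of the EGF receptor, had 1160 ± 306 CPM in WT livers and 491 ± 252 CPM in tumors under WD (n = 3 each), with an adjusted p of 0.0763.

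Among proteases that process receptors and ligands, edgeR called 1 of 10 under HFD, beside 4.84% of genes. This was Adam9, a membrane sheddase (62.2 against 77.2 CPM, −0.31, SE 0.07, adjusted p 0.0356), whose call held in 2 of 8 fits with a library left out (adjusted p up to 0.104) and not with the length offset (−0.25, adjusted p 0.0954). DESeq2, which called 7.43% of genes, called Adam9 and also Spint2, a protease inhibitor, which was higher (0.37, adjusted p 0.0407, against 0.0685 in edgeR). In tumors against WT liver 3 of 12 were called by edgeR, beside 14.9% of genes. St14 (matriptase) and its inhibitor Spint1 rose from low levels, St14 from 0.680 to 3.23 CPM (2.24, SE 0.50, adjusted p 0.0197) and Spint1 from 0.173 to 1.08 CPM (2.60, SE 0.56, adjusted p 0.0184). Adam9 fell by 0.92 (SE 0.26, adjusted p 0.0399). Of the 3, 0 were called without WT replicate 2, beside 569 of 18518 genes. Summed cholangiocyte markers were 205 to 525 CPM in tumors and 20.4 to 73.0 CPM in WT livers. Of the 7 markers 5 had a positive fold change and 2 a negative one, and 2 (Sox9 and Spp1) were called higher. Against N-LKO liver 4 of the 7 were negative (median −0.654), and 1 (Sox9) was called higher. The part of these markers in the values of St14, Spint1 and Adam9 was not tested.

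Output genes of the receptors were few in the calls. Ccnd1 (cyclin D1) rose by 0.86 (SE 0.16, adjusted p 0.0170) in N-LKO livers under HFD, from 25.5, 32.3, 32.2 and 45.7 CPM to 50.1, 71.9, 64.1 and 60.9 CPM, as the only call among 7 tested, beside 4.84% of genes, and its call held in 7 of 8 fits with a library left out and with the length offset (0.90, adjusted p 0.0230). All N-LKO livers were above all WT livers. In tumors against WT liver it had 1.26 (SE 0.43, adjusted p 0.0736) with overlapping groups, and DESeq2 called it (adjusted p 0.0181). Cyp8b1, a bile acid synthesis enzyme held down by Fgfr4 signaling, was the 1 edgeR call among 10 there, at 101, 131 and 16.5 CPM in tumors against 265, 498 and 426 CPM (−2.26, SE 0.61, adjusted p 0.0360). It was not called without WT replicate 2. DESeq2 called 3 of the 10, Cyp8b1 lower and Ccnd1 and Ier3 (adjusted p 0.0305) higher, beside 20.4% of genes.

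**Figure D5:**
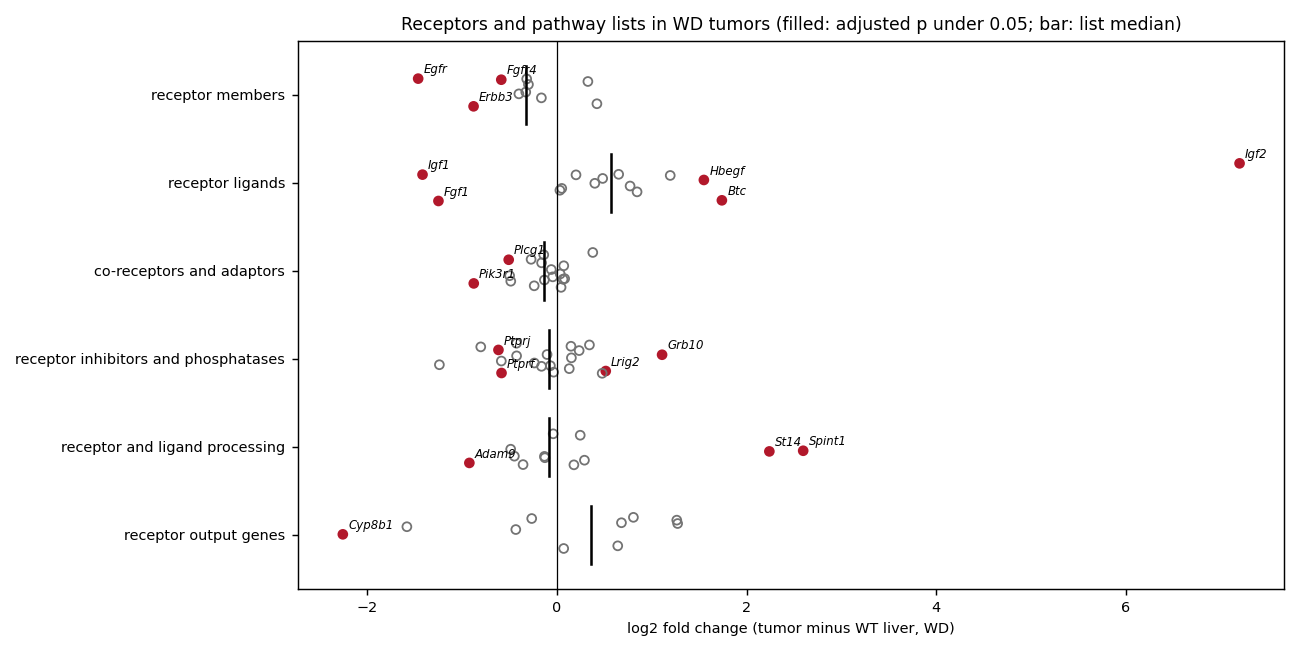
Log2 fold change of tumor against WT liver under WD (x axis) for the 10 receptors and the tested members of 5 pathway lists, from ligands to output genes (rows), with genes past an adjusted p of 0.05 filled and named, and list medians as bars. The ligands have a median of 0.566 and the receptors one of −0.325, and Igf2 at 7.20 rests on 1 tumor.

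Of 44 other receptor tyrosine kinases 33 were tested under WD, and 5 were called higher and 2 lower in tumors against WT liver (median 0.040, beside 0.041 for all genes), 7 of 33 beside 14.9% of genes. The risers were at low levels: Ddr1, a collagen receptor, went from 1.78, 1.42 and 2.80 CPM to 4.83, 21.7 and 14.2 CPM (2.75, SE 0.52, adjusted p 0.0128), and Mst1r, the Met relative that binds macrophage-stimulating protein, from 0.206, 0.271 and 0.179 CPM to 0.553, 1.82 and 2.55 CPM (2.88, SE 0.60, adjusted p 0.0168). Ephb1 had 2.34 (SE 0.56, adjusted p 0.0246). Ephb2 was the only member of the list still called without WT replicate 2, beside 569 of 18518 genes. Under HFD 0 of 20 were called, beside 4.84% of genes. There 6 stood at an unadjusted p under 0.05, beside 22.7%, and DESeq2 called 1, higher, beside 7.43%. Between N-LKO and WT liver under WD edgeR called 0 of 33, beside 0% of genes. Here 7 stood at an unadjusted p under 0.05, all higher, beside 12.4%, and DESeq2 called 2, beside 0.561%. Between tumor and N-LKO liver edgeR called 0 of 33, beside 0.499% of genes. Unadjusted there were 10 at a p under 0.05, beside 18.3%, and DESeq2 called 2 higher and 1 lower, beside 5.73%.

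Kit, the receptor of stem cell factor, was the only pathway list gene called by edgeR for a genotype effect that differed between diets. It was 1 of 28 other receptor tyrosine kinases tested, beside 1.62% of all genes called. The 12 ligands, 17 co-receptors and adaptors, 20 inhibitors and phosphatases, 11 processing genes and 10 output genes tested gave 0 calls. A share near that of all genes is no result about a list. DESeq2 also called Hgf (adjusted p 0.00589) and Cblb (0.89, adjusted p 0.0155) with a higher effect under WD and Hpn (−0.54, adjusted p 0.0262) and Spint2 (−0.57, adjusted p 0.0155) with a lower one, beside 6.19% of genes, and edgeR had adjusted p of 0.0542, 0.0598, 0.0842 and 0.0604 for these 4. Kit stood at 2.81, 3.35, 3.78 and 3.26 CPM in WT liver on HFD and 2.15, 1.98, 1.85 and 2.40 CPM in N-LKO liver on the same diet. On WD it stood at 8.03, 6.58 and 5.90 CPM in WT and 11.2, 13.3 and 10.1 CPM in N-LKO livers. N-LKO livers were all below WT livers on the first diet and all above them on the second. The effect under WD minus that under HFD was 1.42 (SE 0.24, adjusted p 0.0212, over 14 livers), although neither diet passed alone (−0.64, adjusted p 0.0887 under HFD, and 0.75, adjusted p 0.353 under WD).

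Genes whose values ran most like those of a receptor were looked for over the 17 libraries, by the root mean square difference of log2 CPM centred within each table, among 9194 genes. For Egfr they were C8b (0.265) and C8a (0.266), which encode chains of the complement component C8 made by hepatocytes, and Serpina11 (0.402), while the values of Egfr themselves varied by 0.691. C8a stood at a mean of 679 CPM in WT livers and 290 CPM in tumors under WD. For Erbb3 they were Kif1b (0.140), Tmem259 (0.15) and Kdm6b (0.151), where Erbb3 varied by 0.349. For Fgfr1 they were Susd1 (0.251), Snhg12 (0.252) and Rnf170 (0.264), beside 0.384. Those found for Erbb2 (Aprt, Fau and AC124742.1, 0.297 to 0.303, beside 0.448) rest on a few counts per library.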

How the data were processed

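Sequenced RNA of 8 livers under HFD and of 6 livers and 3 tumors under WD was read from the deposited tables of estimated counts per gene. How the authors made these deposited expected counts is only partly known: the submitters' processing notes name STAR, Partek and mm9 without their roles, whereas the study's methods name ribosomal RNA removal, single-end HiSeq reads and TopHat2. Gene starts in the files matched GRCm38 (GENCODE M21) for 18619 of 19151 and 23459 of 24233 genes, so positions and lengths come from that annotation. Software versions were not given in the sources used here. All 17 value columns were assigned and 0 were left out. Of the values 69.7% (HFD) and 66.6% (WD) were whole and the rest fractional. Strand use was not given. Counts of Fgfr2 and Fgfr3 under WD were up to 0.393 and 0.407 off a whole count.

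Estimated counts were rounded before the quasi-likelihood test of edgeR 4.0.16 (R 4.3.3), with TMM factors, the filterByExpr filter and Benjamini-Hochberg adjustment over all genes tested at 0.05: the HFD table alone (13460 genes tested), the 3 WD groups with a shared spread (17829 genes), and the difference of the genotype effect between diets over the 14 livers (15850 genes). The SE is the fold change over the square root of F. The biological coefficient of variation was 0.149, 0.243 and 0.163. Totals per library limit the counting precision. Replicates within groups differed by more than sampling noise (chi-square per degree of freedom at least 8.74). Scripts were tested on simulated data. Alternatives were DESeq2 1.42.0 size factors and Wald test, dropping the low-count filter, requiring a mean of 1 CPM, offsets for length and for length and GC (lowess span 0.3), a replicate block, each library left out, only the 2 groups compared, and mean transcript length.

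The receptors and the gene lists were chosen with earlier results of these data known. Named genes were all 10 receptors, from each pathway list and comparison up to 4 called genes with the largest change, or, where fewer than 2 were called, examples of the highest level; for genes like a receptor, the 3 nearest of each of the 4 receptors with the widest range. Nrg2, Errfi1, Ephb2, Fgf1 in tumors and the ratios between receptors were picked outside this rule, after their values had been seen. A further gene that the rule would name is not reported here. A count of N-glycosylation sites per protein was not run here.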

Additional observations from a re-analysis of the deposited data

Results flagged for a closer look

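Of 50 groups of 4 HFD libraries checked for a library far from the rest, of which chance would mark about 1 in 20, 1 was marked, that of Fgfr2 in N-LKO liver: replicate 2 stood at 36.4 CPM, with the other livers of the group at 21.3 to 23.7 CPM and a gap of 0.839 of the whole range. Without it the difference of Fgfr2 between N-LKO and WT liver under HFD was 0.04 on the log2 scale, against 0.25 with it, and neither passed.

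The genotype effect on Kit differed between diets, by 1.42 on the log2 scale (WD minus HFD, SE 0.24, edgeR adjusted p 0.0212), with N-LKO livers lower in 4 of 4 libraries under HFD and higher in 3 of 3 under WD. The call held with each of the 14 livers left out in turn, with DESeq2 (1.43, adjusted p 0.000488) and with the length offset (1.23, adjusted p 0.0498), and it was lost with a replicate block (1.41, adjusted p 0.0701). Kit was the 1 call among 28 other receptor tyrosine kinases tested for this difference, beside 1.62% of all genes. Diet and table were the same split, so the 2 cannot be told apart here.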

How the results depend on the processing

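The number of receptors called moved as follows. Under HFD it was 0, but 1 with the DESeq2 Wald test (Insr) and 0 to 1 with a library left out. For tumor against N-LKO liver it was 0, but 1 with DESeq2 (Erbb3). For tumor against WT liver it was 3, but 0 when only the 2 groups compared entered the fit and 0 to 2 with a library left out. In the other 2 comparisons it was 0 under all alternatives. The cause of these shifts was not tested. Genes called over the whole table moved too: 652 under HFD against 1000 with DESeq2, 268 with the length offset and 282 with that for length and GC; 0 for N-LKO against WT liver under WD against 100 with DESeq2 and 6 with only the 2 groups; 89 for tumor against N-LKO liver against 1021, 58 with the 1 CPM filter and 29 with only the 2 groups; 2653 for tumor against WT liver against 705 with only the 2 groups and 569 without WT replicate 2; and 257 for the difference between diets against 981 with DESeq2, 69 with the length offset and 74 with that for length and GC.

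With a block for the replicate number, 1 receptor was called under HFD (Egfr, −0.90, adjusted p 0.0315) and 1 for tumor against WT liver (Erbb3), tumor against N-LKO liver had 36 genes called and the difference between diets had 0. Same-numbered libraries were not treated as pairs, since no source used here ties them to shared animals and their deviations correlated at −0.114 to 0.138 over 13 pairs, and 5 of the 13 correlated best with their own number. With the block the difference of Erbb3 between diets was 0.0004876 in place of −0.01, and with the 1 CPM filter 0.012.

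Small values turned sign. With the length offset and that for length and GC, under HFD Erbb3 was 0.042 and 0.035 and Met 0.13 and 0.13, under WD Igf1r was −0.058 and −0.034 for N-LKO against WT liver, and the difference of Insr between diets was −0.29 and −0.31. With a library left out, N-LKO against WT liver under HFD ran from −0.15 to 0.010 for Erbb3, −0.078 to 0.063 for Met and −0.14 to 0.28 for Fgfr1. Under WD it ran from −0.12 to 0.25 for Erbb2, −0.36 to 0.11 for Erbb3, −0.094 to 0.22 for Igf1r and −0.35 to 0.024 for Fgfr2. Tumor against N-LKO liver ran from −0.20 to 0.003437 for Insr and −0.14 to 0.31 for Fgfr3, and tumor against WT liver from −0.33 to 0.086 for Met. The difference between diets ran from −0.58 to 0.40 for Egfr, −0.25 to 0.19 for Erbb3, −0.084 to 0.15 for Insr and −0.021 to 0.40 for Fgfr1. The other fold changes of the receptors kept their sign under all alternatives run.

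Divided by the mean and not the longest transcript length, levels in WT liver under HFD and WD were, in CPM per kb, 86.6 and 232 for Egfr, 0.0921 and 0.573 for Erbb2, 34.4 and 63.4 for Met, 51.1 and 98.3 for Insr, 0.81 and 3.47 for Igf1r, 2.03 and 4.05 for Fgfr1, 10.2 and 21.4 for Fgfr2, 7.19 and 7.14 for Fgfr3 and 14.3 and 17.2 for Fgfr4, while Erbb3 has 1 transcript and did not move. Depth limits Erbb2 most, at 1 to 12 counts per HFD library, and counting intervals would cover counting error only.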
